A study of Homo sapiens with 6 samples.

Results

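The genes described are those of the proteasome, all symbols of the form PSMA to PSMG followed by a number, in HCT116 cells. In the array annotation 51 probe sets were paired with exactly 1 such symbol, and they covered 45 genes out of 18417 named genes. A gene with several probe sets was represented by its brightest. Of the 45, 5 are immune members (PSMB8, PSMB9, PSMB10, PSME1 and PSME2) and 40 are other members. PSMC5, PSMD7 and PSMD13 had no probe set with 1 symbol and were not analysed here.

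HCT116 is an established human colorectal carcinoma line. There were 3 arrays labelled siChe-1, from cells transfected with a duplex against Che-1 (the protein of the AATF gene), and 3 labelled control, from cells transfected with a GFP duplex as non-targeting control. Both groups were grown in DMEM with 10% fetal bovine serum and taken 48 h after transient transfection, and 6 micrograms of total RNA went into each labelling. All RNA came from 1 line, and separate cultures are not stated in the labels, so p-values reflect the spread among 6 arrays, which may be technical. In bulk RNA of this kind, fewer cells making a transcript and less of it per cell cannot be told apart.

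The targeted gene goes against the labels. AATF read 8.53, 8.81 and 8.87 in siChe-1-labelled arrays, against 7.55, 7.75 and 7.55 in control-labelled arrays (log2 RMA intensity). It was thus higher where it should have been depleted, by 1.12 ± 0.13 (log2 difference, SE, limma adjusted p = 0.00122, with p = 0.1 by an exact two-sided permutation test, the smallest that 3 arrays against 3 allow). Groups are therefore called by their labels, and every direction below would turn if the labels were exchanged. One array stood apart: siChe-1 replicate 1 correlated with siChe-1 replicates 2 and 3 at r = 0.984 and 0.986 across genes, while those 2 correlated at 0.996 and the control-labelled arrays among themselves at 0.994 to 0.995. Epithelial markers fitted the line, with EPCAM at 10.15, 9.93 and 10.27 in siChe-1-labelled arrays and 10.63, 10.55 and 10.05 in control-labelled ones, although VIL1 read no higher than 3.76 on any array. The leukocyte marker PTPRC read 2.28 to 2.57 in siChe-1-labelled arrays and 2.32 to 2.54 in control-labelled ones, and none of 11 leukocyte markers passed the threshold in either direction.

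The proteasome is the protease that degrades proteins tagged with ubiquitin. Its 20S core is a stack of rings of alpha subunits (PSMA genes) and beta subunits (PSMB genes), of which PSMB5, PSMB6 and PSMB7 carry the standard active sites. The 19S cap, made of ATPases (PSMC genes) and non-ATPase subunits (PSMD genes), recognises, unfolds and feeds in substrates. Interferon makes cells produce the replacement active-site subunits PSMB8, PSMB9 and PSMB10 and the PA28 cap (PSME1 and PSME2). They form the immunoproteasome, which is known for supplying peptides to MHC class I molecules.

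Of the immune members, 3 of 5 were lower in siChe-1-labelled arrays at a limma adjusted p under 0.05 over all genes, and none was higher. Over all genes 2.52% were lower and 1.19% higher at that threshold, 3.72% in all. PSMB9, the replacement for PSMB6, had by far the largest difference of the 45 genes, at a measured 7.74-fold lower, while the PA28 genes PSME1 and PSME2 were 1.91-fold and 2.02-fold lower. PSMB10, the replacement for PSMB7, and PSMB8, the replacement for PSMB5, did not pass. The median log2 difference of the 5 was -0.93, that of the 40 other members -0.21 and that of all genes 0.0051.

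PSMB9 read 5.52, 5.80 and 5.73 in siChe-1-labelled arrays, against 8.34, 8.69 and 8.88 in control-labelled arrays (log2 RMA intensity). Every siChe-1-labelled array was far below every control-labelled one, and the measured level was 12.9% of that in control-labelled arrays. The siChe-1-labelled readings lay close to the median of all probe sets on their arrays (5.03 to 5.05) and cannot be placed above background, so no exact level follows from them. The log2 difference was -2.95 ± 0.16 (SE, 95% confidence interval -3.30 to -2.61, limma adjusted p = 2.25e-06). Leaving out any 1 array kept it past the threshold, with log2 differences between -3.10 and -2.83. The annotation lists 3 probe sets for PSMB9 and 3 for PSMB8, and within each gene the 3 held identical values on all 6 arrays, so they were counted once.

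PSME1 encodes the alpha subunit of PA28, a ring that binds the ends of the 20S core without needing ATP. It read 8.19, 8.13 and 8.11 in siChe-1-labelled arrays, against 8.97, 9.0 and 9.26 in control-labelled arrays (log2 RMA intensity), a difference of -0.93 ± 0.12 (SE, limma adjusted p = 0.00234). PSME2, the beta subunit of the same ring, read 7.48, 7.44 and 7.28 in siChe-1-labelled arrays, against 8.38, 8.42 and 8.44 in control-labelled ones, a difference of -1.02 ± 0.12 (SE, limma adjusted p = 0.000900). The 2 partners of the ring thus differed by nearly the same amount, and neither overlapped between groups. With any 1 array left out, PSME1 lay between -0.98 and -0.84 and PSME2 between -1.06 and -0.95, all past the threshold.

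PSMB10 read 6.68, 6.33 and 6.37 in siChe-1-labelled arrays, against 6.88, 6.89 and 6.78 in control-labelled arrays (log2 RMA intensity). All 3 siChe-1-labelled values were below the control-labelled ones, but the difference of -0.39 ± 0.13 (SE) did not pass (limma adjusted p = 0.139). Without siChe-1 replicate 1, the highest of its group, it was -0.50 and passed (limma adjusted p = 0.0199), as it did with array weights (-0.48, 0.00565). PSMB8 read 3.65, 3.62 and 3.25 in siChe-1-labelled arrays and 3.76, 4.07 and 3.80 in control-labelled ones, a difference of -0.37 ± 0.15 (SE, limma adjusted p = 0.226). With array weights PSMB8 passed (-0.52, limma adjusted p = 0.0144), a setting under which 8.24% of all genes were lower. The largest weight, 3.38, fell on siChe-1 replicate 3, where PSMB8 read lowest. The PSMB8 readings lay under the median of all probe sets on their arrays (4.95 to 5.05). Without detection calls they cannot be placed above background, and they neither show a change of PSMB8 nor that it was alike in both groups. The immune members therefore split into 3 that were clearly lower, 1 with a small difference and 1 that could not be judged.

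**Figure D1:**
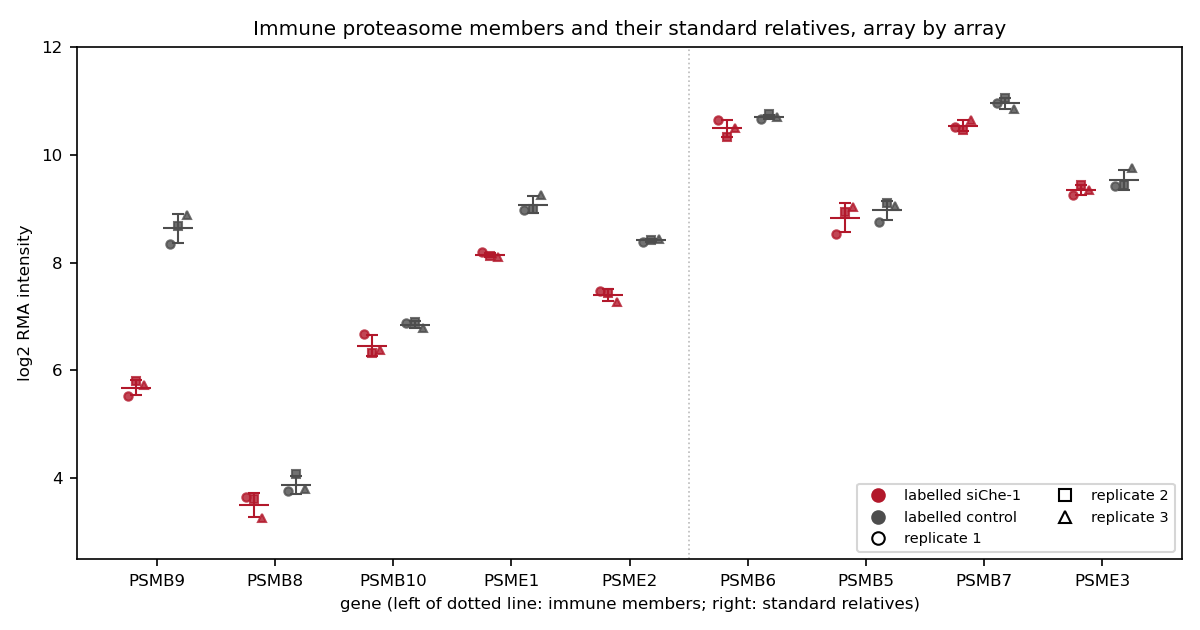
Log2 RMA intensity (y axis) of the 5 immune members and of 4 standard relatives (x axis) on each array, siChe-1-labelled arrays in red and control-labelled arrays in grey, with marker shapes for replicate numbers and bars for the mean and SD of 3 arrays. The groups of PSMB9, PSME1 and PSME2 are wide apart, those of PSMB10 and PSMB8 are close, and levels of different genes are not comparable because each probe set has its own scale.

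The standard active-site subunits showed no gap as wide as those of PSMB9, PSME1 and PSME2. PSMB6, which PSMB9 replaces, read 10.65, 10.34 and 10.49 in siChe-1-labelled arrays and 10.67, 10.75 and 10.69 in control-labelled arrays (log2 RMA intensity), a difference of -0.21 ± 0.12 (SE, limma adjusted p = 0.425). PSMB5, which PSMB8 replaces, read 8.53, 8.94 and 9.03 in siChe-1-labelled arrays and 8.76, 9.10 and 9.05 in control-labelled ones, a difference of -0.13 ± 0.16 (SE, limma adjusted p = 0.734). The groups of PSMB5 overlapped, and those of PSMB6 nearly met. PSMB7, which PSMB10 replaces, read 10.51, 10.45 and 10.65 in siChe-1-labelled arrays and 10.96, 11.05 and 10.85 in control-labelled ones. Its difference was -0.42 ± 0.12 (SE, limma adjusted p = 0.0895), and its groups did not overlap. As log2 differences, PSMB9 stood -2.74 below its counterpart PSMB6, and PSMB10 stood 0.026 above PSMB7. PSMB8 stood -0.24 below PSMB5, but PSMB8 readings cannot be placed above background, so this contrast cannot be judged. For PSMB6, PSMB5 and PSMB7 the 95% confidence intervals ran from -0.48 to 0.064, from -0.49 to 0.22 and from -0.68 to -0.15, so none of them reaches a log2 difference of -1.

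The promoter sequences of the 5 immune members and of TAP1 are shown because PSMB9, PSME1 and PSME2 were lower together and because interferon acts through a short element that can be looked for in them. TAP1, the peptide transporter gene next to PSMB9, is included because the 2 genes run away from each other. Between the PSMB9 start and the nearest TAP1 start in RefSeq lie 487 bases, so that the 2 genes share a promoter region. Each window is the stretch from 250 bases before to 50 bases after a gene start in RefSeq (GRCh38.p14), written along the gene. Capitals mark matches to the core of the interferon-stimulated response element, which is GAAA, any 2 bases and GAAA again, read on either strand. PSMB9 held no match in its window, and its capitals mark instead the 13 bases it shares with the TAP1 window.
PSMB9, chr6:32853942-32854241, strand +: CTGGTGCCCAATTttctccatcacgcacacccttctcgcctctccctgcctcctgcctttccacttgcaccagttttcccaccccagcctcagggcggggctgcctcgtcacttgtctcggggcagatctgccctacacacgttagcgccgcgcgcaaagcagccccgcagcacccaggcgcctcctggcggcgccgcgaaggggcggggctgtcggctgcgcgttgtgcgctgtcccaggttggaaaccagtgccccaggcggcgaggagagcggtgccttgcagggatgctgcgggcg
TAP1, chr6:32853655-32853954, strand -: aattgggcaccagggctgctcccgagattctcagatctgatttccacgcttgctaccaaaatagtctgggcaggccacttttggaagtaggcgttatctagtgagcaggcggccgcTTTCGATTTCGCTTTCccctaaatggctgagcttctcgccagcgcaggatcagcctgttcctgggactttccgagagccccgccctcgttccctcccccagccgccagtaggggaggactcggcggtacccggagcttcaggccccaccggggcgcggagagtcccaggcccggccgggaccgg
PSME1, chr14:24135944-24136243, strand +: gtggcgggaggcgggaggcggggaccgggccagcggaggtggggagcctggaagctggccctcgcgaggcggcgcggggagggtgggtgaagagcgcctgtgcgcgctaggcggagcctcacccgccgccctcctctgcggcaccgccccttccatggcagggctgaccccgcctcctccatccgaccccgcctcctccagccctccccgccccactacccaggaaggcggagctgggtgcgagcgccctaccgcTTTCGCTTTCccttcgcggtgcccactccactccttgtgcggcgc
PSME2, chr14:24146561-24146860, strand -: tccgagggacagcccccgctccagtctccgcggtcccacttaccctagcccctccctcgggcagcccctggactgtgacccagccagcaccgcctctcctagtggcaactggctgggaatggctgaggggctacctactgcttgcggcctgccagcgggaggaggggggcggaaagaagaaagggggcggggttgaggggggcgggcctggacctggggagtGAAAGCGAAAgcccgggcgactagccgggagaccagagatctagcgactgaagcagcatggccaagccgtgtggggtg
PSMB10, chr16:67936801-67937100, strand -: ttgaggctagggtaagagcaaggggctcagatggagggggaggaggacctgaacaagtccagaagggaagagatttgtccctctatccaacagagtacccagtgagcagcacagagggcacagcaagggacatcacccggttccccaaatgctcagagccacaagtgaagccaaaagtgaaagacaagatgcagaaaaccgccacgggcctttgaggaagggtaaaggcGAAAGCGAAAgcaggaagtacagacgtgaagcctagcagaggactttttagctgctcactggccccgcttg
PSMB8, chr6:32843998-32844297, strand -: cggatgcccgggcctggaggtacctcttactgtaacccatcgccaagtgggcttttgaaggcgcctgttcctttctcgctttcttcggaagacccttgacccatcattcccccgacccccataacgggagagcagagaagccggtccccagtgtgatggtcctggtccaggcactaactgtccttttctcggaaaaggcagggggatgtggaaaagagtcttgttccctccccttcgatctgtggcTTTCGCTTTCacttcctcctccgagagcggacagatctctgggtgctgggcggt

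The element was found in 4 of the 5 immune members. It lay at -28 to -19 from the start in PSME2, at -21 to -12 in PSMB10, at 6 to 15 in PSME1 and at -4 to 6 in 1 of the 2 windows of PSMB8. The TAP1 window held 2 overlapping matches, from -134 to -125 and from -128 to -119, and these lie between the TAP1 and PSMB9 starts. It also held a match to the NF-kB pattern (GGGA, any base, TT, any base, CC) at -72 to -63. That PSMB9 had no match says only that these letters are not in its own window.

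Of the 40 other members, 34 had a RefSeq window and 3 of them also held the interferon element. These are printed with 10 bases on each side, because they carry the same letters without a called difference.
PSMB4, chr1:151399495-151399524, strand +: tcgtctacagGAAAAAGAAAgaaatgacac
PSMA4, chr15:78540155-78540184, strand +: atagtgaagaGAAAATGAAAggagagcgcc
PSMG4, chr6:3258904-3258933, strand +: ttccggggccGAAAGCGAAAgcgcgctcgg
PSMB4, a beta ring subunit, had a log2 difference of -0.35 ± 0.14 (SE, limma adjusted p = 0.212), PSMA4, an alpha ring subunit, -0.098 ± 0.13 (adjusted p = 0.753), and PSMG4, an assembly chaperone, -0.077 ± 0.18 (adjusted p = 0.880). The match thus occurred both in members that were lower and in members that were not called, and 7 of 39 members with a window held it (17.9%), against 4.38% of 27305 genes and 3.57% of 35116 windows in the RefSeq table. TTCNNNGAA, the pattern of STAT dimers known as GAS, was in 8 of the 39 (20.5%, against 9.38% of genes), among them PSMB8 and PSMB5. Another TAP1 window, not shown and further from PSMB9, also held it, at -189 to -181 from its own start. TGACNNNGC, the core of the antioxidant response element that NRF1 and NRF2 bind, was in 14 of the 39 (35.9%, against 16.1% of genes). Among the 14 were 3 immune members, PSMB9, PSME1 and PSME2, which are the 3 that were called lower, and 11 other members. None of those 11 was called, and a link between the pattern and the differences was not tested. The NF-kB pattern was in 0 of the 39 (1.71% of genes). All patterns were sought on both strands, no match to the interferon element shared a base with a match to another pattern, and 6 members (PSMA7, PSMB1, PSMB6, PSMB7, PSMD4 and PSMG3) had no window.

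Among the 40 other members, 1 was lower at a limma adjusted p under 0.05 and none was higher. That share of 2.5% is about the 2.52% of all genes that were lower. The single gene was PSMG3, a chaperone for assembly of the 20S alpha ring, which read 7.53, 7.23 and 7.47 in siChe-1-labelled arrays, against 8.07, 7.97 and 7.95 in control-labelled arrays (log2 RMA intensity). The groups did not overlap, and PSMG3 was 1.5-fold lower (-0.59 ± 0.13, SE, limma adjusted p = 0.0315). The call was lost when any single array other than siChe-1 replicate 1 was left out, with adjusted p between 0.0793 and 0.15, under renewed quantile normalization (0.0892), and with all probe sets tested (0.0887).

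**Figure D2:**
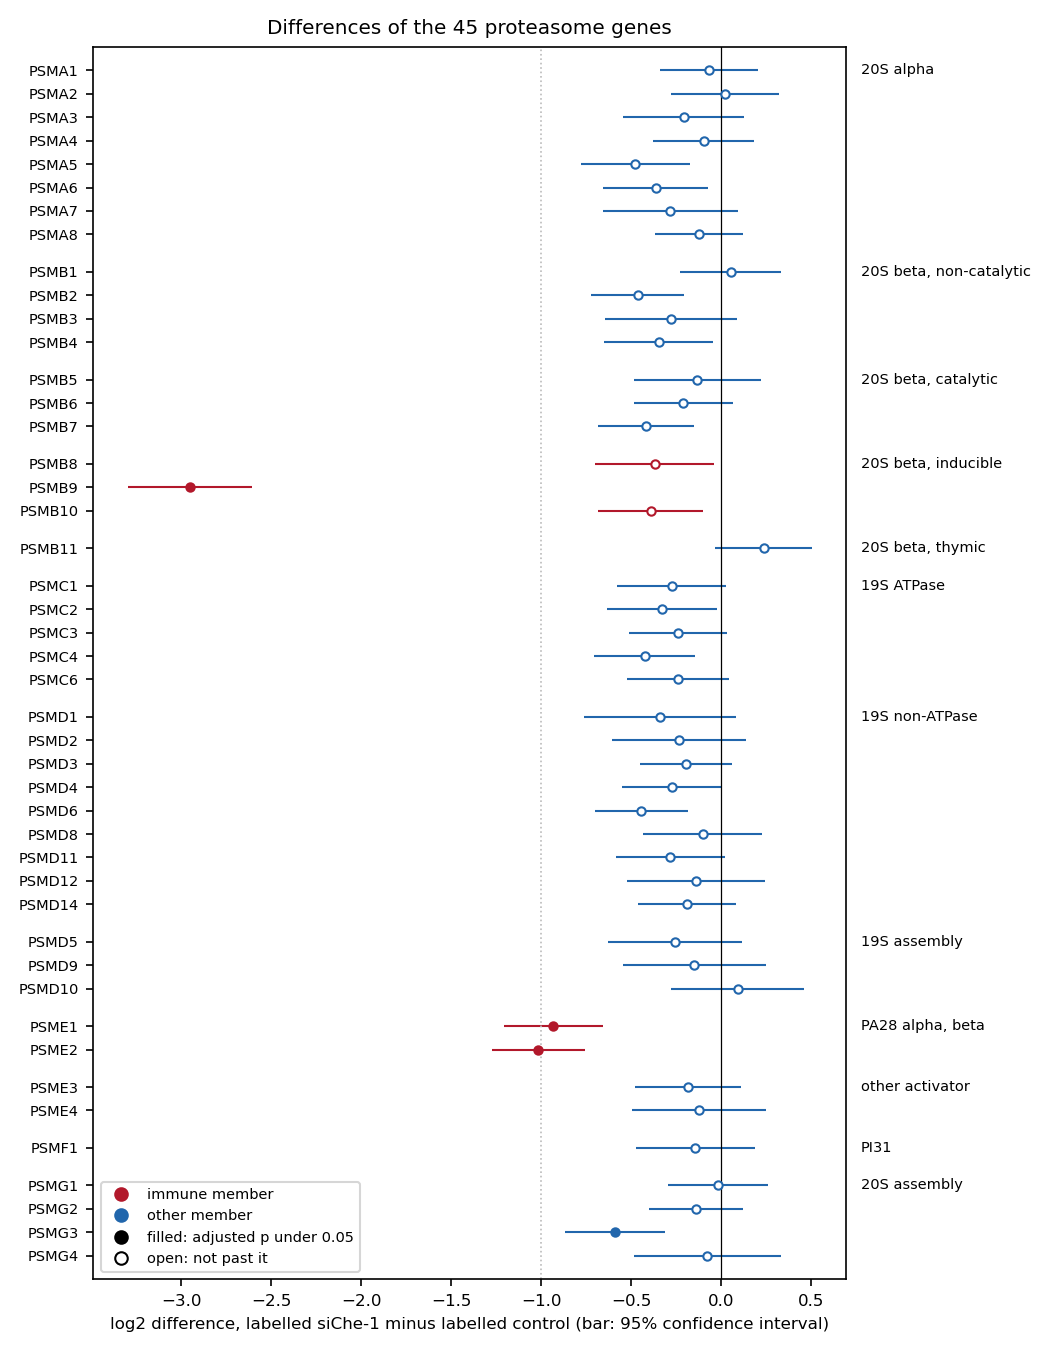
Log2 difference between siChe-1-labelled and control-labelled arrays (x axis, point with 95% confidence interval) for each of the 45 genes (y axis), grouped by role, with filled points for adjusted p under 0.05. PSMB9 lies alone near -3, PSME1 and PSME2 near -1, and no interval among the 40 other members reaches -1, the lowest bound being -0.87 for PSMG3.

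Most of the other members nevertheless leaned the same way. Of the 40, 36 had a log2 difference below 0, which is 90%, against 49.1% of all genes. Some related lists leaned too, with 15 of 17 proteasome partners, 7 of 9 regulators of standard subunits and 8 of 11 genes of the ubiquitin and p97 list below 0. The marker lists differed, with 5 of 8 epithelial, 2 of 11 leukocyte and 3 of 9 fibroblast and endothelial markers below 0. The share below 0 among genes as bright as the members was not computed. In 16 of the 40 the 3 siChe-1-labelled values all lay below the 3 control-labelled ones (40%, against 13.3% of all genes), and in 1, PSMB11, all lay above (2.5%, against 10.6%). Groups were apart in either direction in 24% of all genes. At an unadjusted limma p under 0.05, 9 of the 40 were lower and 0 higher, where all genes gave 9.77% and 7.88%. The median of -0.21 corresponds to 86.5% of the control-labelled level. These differences are small, since the confidence intervals of 31 of the 40 include 0 and those of all 40 lie above -1. Among the 11050 brighter genes left when the dimmest 40% are dropped, the median difference was -0.020.

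**Figure D3:**
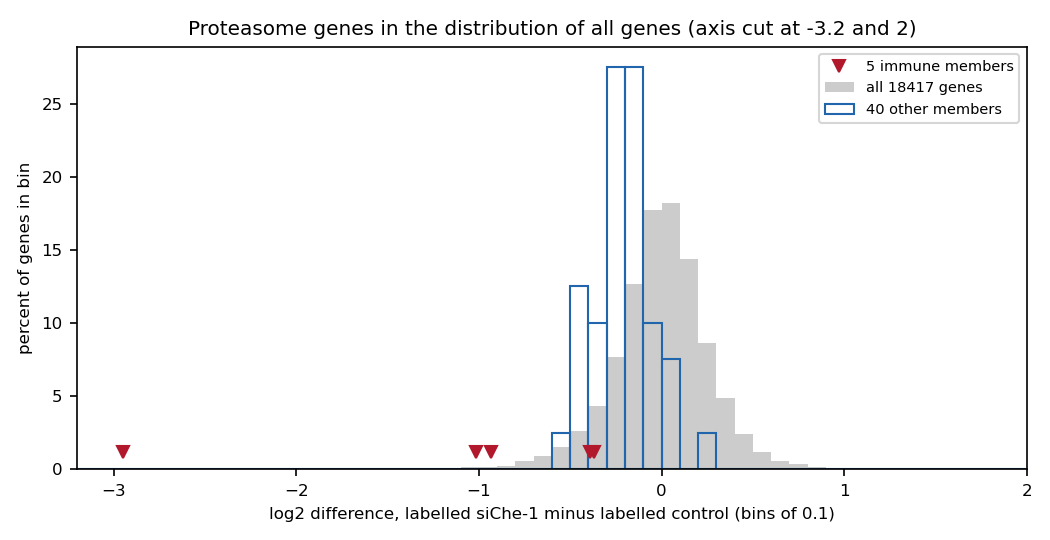
Share of genes in bins of 0.1 of the log2 difference between siChe-1-labelled and control-labelled arrays (x axis, in log2 units, y axis in percent) for all 18417 genes (grey bars) and the 40 other members (blue outlines), with red triangles for the 5 immune members at an arbitrary height. The blue outlines sit mostly between -0.5 and 0 while the grey bars centre on 0.

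The lean was unequal across arrays. Relative to the mean of the control-labelled arrays, the median of the 40 other members was -0.31, -0.17 and -0.15 in siChe-1 replicates 1, 2 and 3, and 0.044, 0.057 and -0.058 in control replicates 1, 2 and 3 (log2). It was thus largest in siChe-1 replicate 1, the array that stood apart, which held the lowest of the 6 values in 19 of the 40 genes. For the immune members the same medians were -0.88, -0.95 and -0.97 in siChe-1 replicates 1 to 3 and -0.10, 0.044 and 0.032 in control replicates 1 to 3, so there the 3 siChe-1-labelled arrays were close. Without siChe-1 replicate 1, 34 of the 40 still had a difference below 0, and 4 were lower at the threshold (PSMB2, PSMC4, PSMD6 and PSMG3), when 4.48% of all genes were.

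**Figure D4:**
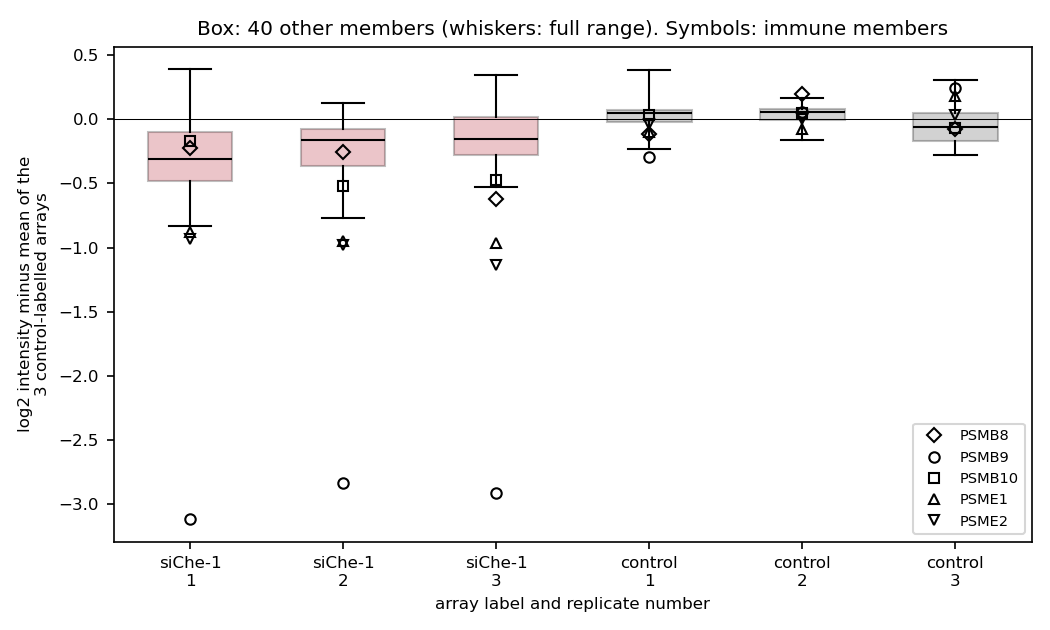
Log2 intensity minus the mean of the control-labelled arrays (y axis) on each array (x axis), as boxes over the 40 other members (median, quartiles, full range) and as symbols for the immune members. The boxes of the siChe-1-labelled arrays sit lower than those of the control-labelled arrays by a fraction of a log2 unit, and PSMB9 lies near -3 on all 3 siChe-1-labelled arrays.

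By role, the alpha ring subunits were spread from no difference to modest ones. PSMA5 had the lowest log2 difference of the 8, at -0.48 ± 0.14 (SE, limma adjusted p = 0.0883), and read 8.63, 8.74 and 9.05 in siChe-1-labelled arrays, against 9.27, 9.35 and 9.23 in control-labelled arrays. PSMA2 had the highest, at 0.022 ± 0.13 (adjusted p = 0.954). PSMA6, at -0.36 ± 0.13 (SE), also had groups that did not overlap. So did PSMA8, a testis-specific alpha subunit, but its readings of 2.35 to 2.56 on the 6 arrays are not shown to be above background. PSMA1, PSMA3, PSMA4 and PSMA7 lay between -0.28 and -0.067. None of the 8 alpha genes passed the threshold.

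In the beta ring, PSMB2 came nearest to a call. It read 10.14, 10.31 and 10.13 in siChe-1-labelled arrays, against 10.65, 10.73 and 10.59 in control-labelled arrays (log2 RMA intensity), a difference of -0.46 ± 0.12 (SE, limma adjusted p = 0.0595). Its groups were well apart, and it passed with the arrays centred on their medians, with the dimmest genes left out, with an intensity trend, with array weights and without siChe-1 replicate 1. Of the other structural beta subunits, PSMB3 and PSMB4 differed by -0.28 and -0.35 and PSMB1 by 0.054, all without passing. PSMB11, the beta subunit of cortical cells in the thymus, read 3.23, 2.96 and 3.04 in siChe-1-labelled arrays and 2.89, 2.82 and 2.81 in control-labelled ones, not shown to be above background.

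All 5 measured ATPases of the 19S base had differences below 0, and none passed. They ran from -0.24 for PSMC6 to -0.42 for PSMC4, which read 9.53, 9.23 and 9.30 in siChe-1-labelled arrays, against 9.84, 9.80 and 9.69 in control-labelled arrays (log2 RMA intensity, limma adjusted p = 0.0999). PSMC1, PSMC2 and PSMC3 had log2 differences of -0.28, -0.33 and -0.24. PSMC1 and PSMC6 each had a second probe set, whose differences of -0.26 and -0.27 were like those of the brighter ones. Processed copies of proteasome genes are known, so their values are uncertain where probes cannot tell a gene from a copy.

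All 9 measured non-ATPase subunits of the 19S cap also had differences below 0, without a call. The lowest was PSMD6, a lid subunit, which read 8.97, 9.0 and 9.12 in siChe-1-labelled arrays, against 9.54, 9.50 and 9.38 in control-labelled arrays (log2 RMA intensity), a difference of -0.44 ± 0.12 (SE, limma adjusted p = 0.0680). The nearest to 0 was PSMD8, at -0.10 ± 0.15 (adjusted p = 0.784). PSMD14, the deubiquitinase that removes ubiquitin chains from substrates, differed by -0.19 ± 0.12, and PSMD4, a ubiquitin receptor, by -0.27 ± 0.12, with adjusted p of 0.473 and 0.288. PSMD1, the scaffold of the base, showed how much 1 array weighed: it read 9.70, 10.48 and 10.39 in siChe-1-labelled arrays and 10.58, 10.52 and 10.49 in control-labelled ones. PSMD2, PSMD3, PSMD11 and PSMD12 lay between -0.28 and -0.14.

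Apart from PSMG3, no assembly chaperone passed, and neither did PSME3, PSME4 or the inhibitor PSMF1. PSMD5, PSMD9 and PSMD10, which escort ATPases into the 19S base, had log2 differences of -0.26, -0.15 and 0.091, and all 3 overlapped between groups. PSMG1 and PSMG2, the pair that starts the alpha ring, differed by -0.018 and -0.14, and PSMG4, the partner of PSMG3, read low at 4.67 to 5.11 in siChe-1-labelled arrays and 4.68 to 5.34 in control-labelled arrays. PSME3, which forms a nuclear ring related to PA28, read 9.26, 9.45 and 9.34 in siChe-1-labelled arrays and 9.41, 9.44 and 9.75 in control-labelled ones, a difference of -0.19 ± 0.13 (SE, limma adjusted p = 0.522, 95% confidence interval -0.48 to 0.11). This relative of PSME1 and PSME2 thus overlapped between groups, and its interval does not meet theirs, which end at -0.66 and -0.76. PSME4, a large single-chain activator, differed by -0.12 ± 0.17, and PSMF1, an inhibitor of the core, by -0.14 ± 0.15.

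Of 12 listed regulators of the immune members, 10 were measured. Of these 10, 5 were lower in siChe-1-labelled arrays and none was higher (median log2 difference -0.72), against 2.52% and 1.19% of all genes. Among those not called, IFNGR1 differed by 0.14, and it, RELA, JAK1 and JAK2 overlapped between groups. RELA passed with array weights (-0.54, limma adjusted p = 0.0180). NFKB1, also not called, read 7.07, 8.01 and 7.72 in siChe-1-labelled arrays, against 8.38, 8.36 and 8.71 in control-labelled arrays. Its groups did not overlap (-0.88 ± 0.22, SE, limma adjusted p = 0.0560). IRF9, the DNA-binding part of the interferon-activated ISGF3 complex, was 3.75-fold lower and read 5.89, 6.36 and 6.03 in siChe-1-labelled arrays, against 7.83, 8.07 and 8.09 in control-labelled arrays (log2 RMA intensity, limma adjusted p = 5.24e-05). IRF1, a factor known to drive PSMB9 and TAP1, was 2.83-fold lower and read 6.46, 6.75 and 6.55 in siChe-1-labelled arrays, against 8.03, 7.90 and 8.33 in control-labelled ones (limma adjusted p = 0.000272). NLRC5, a coactivator of class I genes, was lower by a measured 2.64-fold, IFNGR2, a chain of the interferon gamma receptor, 1.72-fold and IRF2 1.58-fold. NLRC5 read 5.38, 5.0 and 4.78 in siChe-1-labelled arrays, near the array medians and not shown to be above background. IFNGR2 and IRF2 were not called when any single array other than siChe-1 replicate 1 was left out (limma adjusted p up to 0.148 and 0.102).

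Of 14 listed genes for peptide loading on class I molecules, 8 were measured. Of these 8, 6 were lower and none was higher (median log2 difference -1.41), against 2.52% and 1.19% of all genes. TAP1, on the other side of the shared promoter region, was 3.44-fold lower and read 7.89, 8.12 and 8.04 in siChe-1-labelled arrays, against 9.71, 9.73 and 9.96 in control-labelled arrays (log2 RMA intensity, limma adjusted p = 2.44e-05). Its log2 difference of -1.78 ± 0.13 (SE) was smaller than the -2.95 of PSMB9, and the 95% confidence intervals, -2.06 to -1.50 for TAP1 and -3.30 to -2.61 for PSMB9, do not meet. TAP2, its partner in the transporter, was 3.15-fold lower, and B2M, the light chain of class I molecules, 3.44-fold. ERAP1, which trims peptides in the endoplasmic reticulum, was lower by a measured 4.40-fold, to 5.35, 5.72 and 5.15 in siChe-1-labelled arrays, against 7.40, 7.49 and 7.73 in control-labelled ones, the siChe-1-labelled readings not shown to be above background. ERAP2 and TAPBPL were lower by a measured 2.24-fold and 1.98-fold, to means of 4.60 and 4.14 in siChe-1-labelled arrays, not shown to be above background. ERAP2 was not called without control replicate 3 (limma adjusted p = 0.0506), nor TAPBPL without control replicate 1 (0.0616) or control replicate 3 (0.0654).

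Among factors that set the standard subunits, 1 of 9 measured genes was lower and none was higher (median log2 difference -0.17). It was NFE2L3, a relative of NRF1, at 2.53-fold lower, with 7.18, 6.92 and 6.81 in siChe-1-labelled arrays, against 8.36, 8.16 and 8.41 in control-labelled arrays (log2 RMA intensity, limma adjusted p = 0.000401). NFE2L1, the gene of NRF1 itself, which raises proteasome genes when proteasome activity falls short, differed by -0.098 ± 0.14 (adjusted p = 0.788). Of 17 proteasome partners, 1 was lower and none was higher (median -0.13). It was ZFAND2A, a stress-induced protein that binds the 19S cap, at 2.25-fold lower, with 6.49, 6.58 and 6.93 in siChe-1-labelled arrays, against 7.57, 7.95 and 8.0 in control-labelled ones (limma adjusted p = 0.00309). POMP, the chaperone that completes the beta ring, differed by -0.43 ± 0.13 without passing (adjusted p = 0.113). In each of these lists 2.52% of all genes is the share to set beside the lower members.

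**Figure D5:**
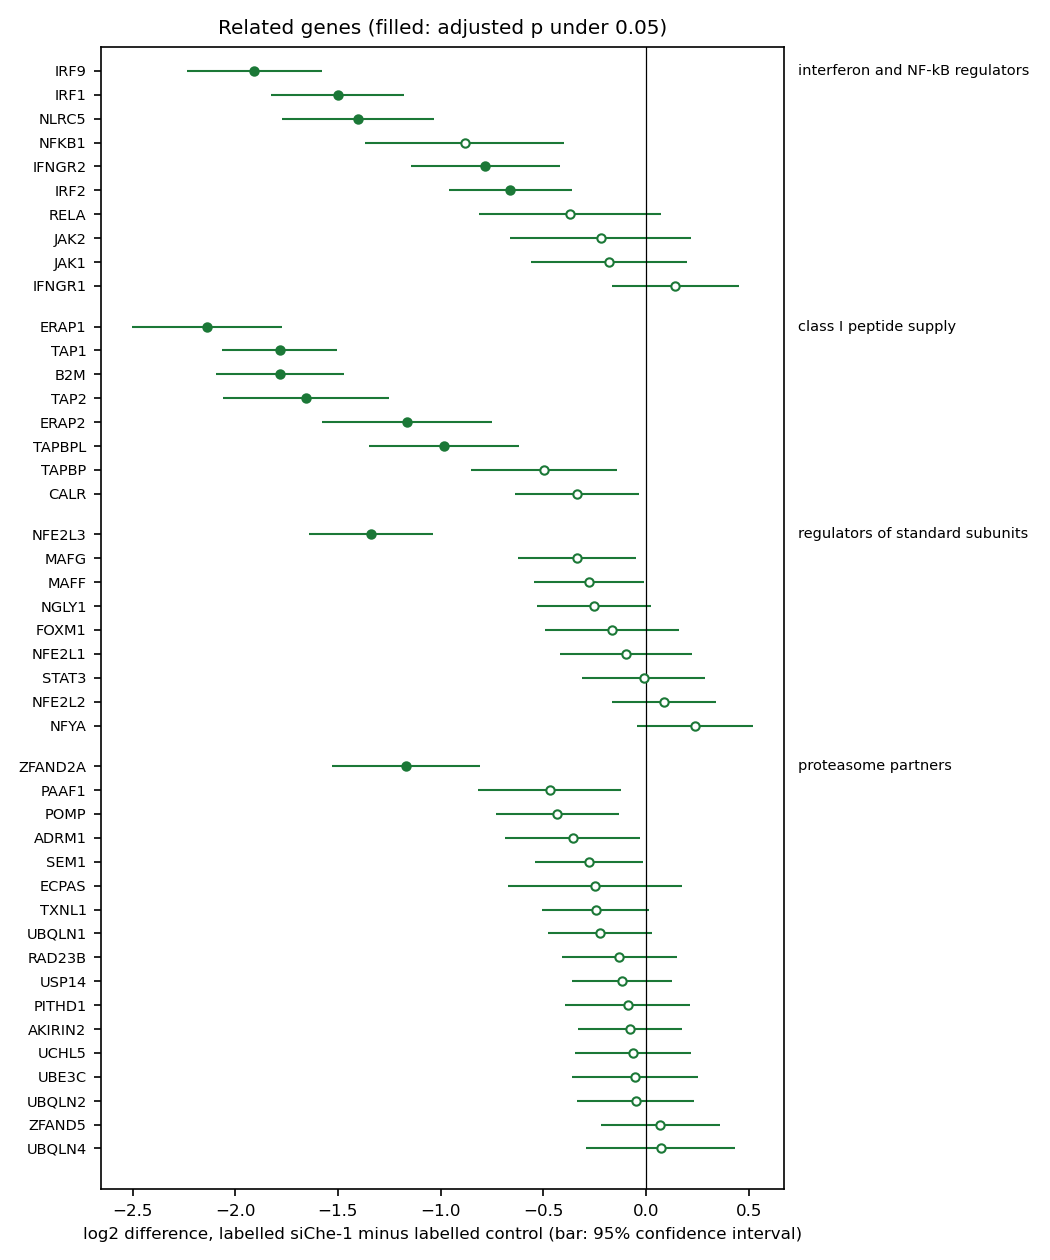
Log2 difference between siChe-1-labelled and control-labelled arrays (x axis, point with 95% confidence interval) for related genes (y axis) in 4 lists, with filled points for adjusted p under 0.05. The class I and interferon-linked lists hold 11 of the 13 filled points, and 15 of the 17 proteasome partners lie below 0, 14 of them without passing. The lists were chosen with earlier results of these data known, so these counts are descriptions only.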

How the data were processed

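Expression was measured on 3 siChe-1-labelled and 3 control-labelled Affymetrix arrays of 1 colour. The deposited values are in log2 units. The submitters' processing notes name RMA and Affymetrix Expression Console, without a version, as what the authors used. RMA subtracts background, forces the same distribution on the probes of every array and then summarises the probes of a set. An overall shift in RNA content is thereby largely removed, and differences of dim genes are compressed. The summarised values still differed in distribution. Their upper quartiles were 7.08 to 7.18 in siChe-1-labelled arrays and 7.17 to 7.21 in control-labelled ones. Renewed quantile normalization moved the median of the 40 other members from -0.21 to -0.15. There are no detection calls, and precision is limited by the 6 arrays. Columns without a sample numbered 0.

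Of 33297 probe sets, 19460 had 1 symbol, 1754 had several and 12083 were not listed. The gene identifiers of 19429 of the first were found in the NCBI gene table (GRCh38.p14), which changed 0 symbols. The brightest probe set of each gene left 18417 genes. The contrast of siChe-1-labelled minus control-labelled arrays was fitted without covariates by lmFit and eBayes (limma 3.58.1, R 4.3.3). A gene was called at a two-sided p under 0.05 after Benjamini-Hochberg adjustment over all 18417. Errors of a difference are moderated SEs. The fit was tested on simulated data. Promoter windows and their patterns came from a RefSeq table.

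The members and lists were chosen with earlier results of these data known. Every member may be named. Of each list, called genes (up to 6) and otherwise the 2 with the smallest p are named by rule. EPCAM, VIL1, PTPRC, NFE2L1, POMP and uncalled regulators (IFNGR1, RELA, JAK1, JAK2, NFKB1) were named outside it. NFKB1 was not followed under the alternatives. Alternatives were other normalizations, filters, rows, probe set averaging, variance priors, array weights, a replicate block, a stricter threshold and leaving out each array. The labels do not say that a replicate number pairs cultures, so the numbers were not taken as pairs. Deviations of same-numbered arrays from their group means correlated at 0.23, 0.064 and -0.045, which cannot exclude pairing.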

Additional observations from a re-analysis of the deposited data

How the results depend on the processing

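PSMB9, PSME1 and PSME2 were lower past the threshold under every alternative run, with PSMB9 between -3.10 and -2.83, PSME1 between -0.98 and -0.84 and PSME2 between -1.09 and -0.92 (log2 differences), and no member was called higher under any of them. The lower members numbered 4, when 2.52% of all genes were lower. Array weights gave siChe-1 replicate 1 a weight of 0.22 and siChe-1 replicate 3 a weight of 3.38. With them the lower members numbered 12, of which 5 were immune members, when 8.24% of all genes were lower. With 1 array left out they numbered 3 to 8, the 8 without siChe-1 replicate 1, when PSMB2, PSMB10, PSMC4 and PSMD6 were added, and 3 without any other array, when PSMG3 was lost. The immune members among them then numbered 3 to 4. The count of all genes past the threshold was 685. It was 294 with all probe sets tested, 2865 with array weights, 261 at an adjusted p under 0.01, and 272 to 1565 with 1 array left out. With the replicate block it was 1145, and the same 4 members were lower. The labels do not say whether the replicate numbers mark pairs. Among the 45 members and the named genes other than NFKB1, the block changed only the call of UFD1. UFD1, a cofactor of the p97 unfoldase, then passed. The median of the immune members was -0.84 under renewed quantile normalization and ran from -0.98 to -0.84 with 1 array left out. That of the 40 other members ran from -0.25 to -0.15 under the alternatives that kept all arrays, and from -0.25 to -0.18 with 1 array left out.

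The members and other named genes that turned direction under an alternative run are the following, none of them called, and the cause was not tested. PSMA1 was 0.0079 and PSMG1 0.081 under quantile normalization. PSMA2 was -0.017 with the arrays centred. With array weights, PSMA1 was 0.040, PSMA2 -0.015, PSMB5 0.049, PSME4 0.064, PSMG1 0.0083 and PTPRC -0.049. With 1 array left out, PSMA2 ran from -0.099 to 0.11, PSMB1 from -0.045 to 0.11, PSMB5 from -0.24 to 0.020, PSMD8 from -0.26 to 0.0033, PSMD10 from -0.035 to 0.24, PSMD12 from -0.28 to 0.026, PSME4 from -0.23 to 0.076, PSMF1 from -0.22 to 0.0072, PSMG1 from -0.10 to 0.034, PSMG4 from -0.22 to 0.12, NFE2L1 from -0.20 to 0.0052, JAK1 from -0.29 to 0.027, JAK2 from -0.37 to 0.030 and PTPRC from -0.010 to 0.14. PSMB8, PSMB11, PSMA8 and PSMG4, and PSMB9 in siChe-1-labelled arrays, read so low that signal over background limits what their values show.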

Other observations

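Genes that deliver substrates to the proteasome, from ubiquitin itself to the p97 unfoldase, had no called member among 11 measured by limma (median log2 difference -0.18). Those with the smallest p, both partners of p97, were UFD1 and NPLOC4. UFD1 read 8.63, 8.31 and 8.35 in siChe-1-labelled arrays, against 9.29, 9.0 and 8.80 in control-labelled arrays (log2 RMA intensity), a difference of -0.60 ± 0.15 (SE, limma adjusted p = 0.0629). NPLOC4 read 9.39, 9.90 and 9.84 in siChe-1-labelled arrays, against 10.18, 10.07 and 10.29 in control-labelled ones, a difference of -0.47 ± 0.15 (SE, limma adjusted p = 0.133). Both had groups that did not overlap, with siChe-1-labelled values lower, as in 13.3% of all genes. UFD1 passed when the dimmest genes were left out, with array weights, with the replicate block and without siChe-1 replicate 1. NPLOC4 passed with array weights (limma adjusted p = 0.0441).

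Of the 8 epithelial markers, KRT19, a simple-epithelial keratin, was 1.51-fold lower (10.63, 10.62 and 10.69 in siChe-1-labelled arrays, against 11.24, 11.28 and 11.18 in control-labelled ones, limma adjusted p = 0.0171), and 7 did not pass. Its call was lost without any single array other than siChe-1 replicate 1 (limma adjusted p from 0.0568 to 0.0905). Of the 9 markers of fibroblasts and endothelium none passed by limma, and COL1A1 and COL3A1 had the smallest p, with log2 differences of 0.38 and 0.25. Of the leukocyte markers CD14 and CD3D had the smallest p, with 0.38 and 0.34. Their means were 3.87 and 3.22 in siChe-1-labelled arrays and 3.49 and 2.88 in control-labelled ones, not shown to be above background. Neither overlapped between groups, and both passed with array weights (limma adjusted p = 0.0140 and 0.0344).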
